A study of Mus musculus with 4 samples.

Results

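Cyclic AMP signalling in male germ cells was examined through 8 genes: Adcy10, which encodes soluble adenylyl cyclase, Adcy3, which encodes a membrane-bound adenylyl cyclase, and the 6 genes Prkaca, Prkacb, Prkar1a, Prkar1b, Prkar2a and Prkar2b, which encode the catalytic and regulatory subunits of protein kinase A (PKA). They were taken by gene symbol from a table of 50763 genes, all 8 were present, and all 8 passed the filter on low counts. The table comes from bulk RNA-seq (polyA-selected) of cells labelled as pachytene spermatocytes, isolated from the mouse testis. It holds 2 libraries labelled Hsf5 knockdown and 2 libraries labelled wild type (WT). Hsf5 belongs to the heat shock factor family. Both groups are labelled as pachytene, the stage when homologous chromosomes are fully paired. Markers of other stages and cell types differed between the groups, as given below. The labels give no age or strain, no method of knockdown, and nothing on whether animals were pooled. They call the replicates biological without naming animals, so the p-values reflect only library-to-library spread, which may be technical.

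In the sperm cell, soluble adenylyl cyclase is switched on by bicarbonate and calcium and makes the cAMP that starts flagellar beating and capacitation. cAMP binds the regulatory subunits of PKA, which then release active catalytic subunits. The type I regulatory subunits are mostly soluble, whereas the type II subunits are docked to structures such as the sperm flagellum by A-kinase anchoring proteins. Prkaca also gives rise to a sperm form of the catalytic subunit that begins at a first exon of its own, a form that counts per gene do not separate from the common one.

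Promoter windows from RefSeq (build GRCm38.p6, an older build than the mm39 of the counts) cover 250 bases before and 50 bases after each annotated start, and 22 windows matched the 8 symbols. Shown here are that of Adcy10, the gene with the deepest fall, both windows of Prkaca, whose counts may pool transcripts from both annotated starts, and the window of Prkar1a with the full cAMP response element (CRE). Each reads 5′ to 3′ on the plus strand, and capitals mark TGACGTCA, the CRE, and its core TGACG or CGTCA. The Adcy10 window and the second Prkaca window hold neither.
Adcy10, chr1:165484933-165485232: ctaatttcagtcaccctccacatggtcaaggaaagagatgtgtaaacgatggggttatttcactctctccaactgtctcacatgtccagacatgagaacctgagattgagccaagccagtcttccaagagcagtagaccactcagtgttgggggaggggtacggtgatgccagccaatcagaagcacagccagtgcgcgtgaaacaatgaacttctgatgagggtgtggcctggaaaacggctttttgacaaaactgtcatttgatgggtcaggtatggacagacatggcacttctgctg
Prkaca, first start, chr8:83972728-83973027: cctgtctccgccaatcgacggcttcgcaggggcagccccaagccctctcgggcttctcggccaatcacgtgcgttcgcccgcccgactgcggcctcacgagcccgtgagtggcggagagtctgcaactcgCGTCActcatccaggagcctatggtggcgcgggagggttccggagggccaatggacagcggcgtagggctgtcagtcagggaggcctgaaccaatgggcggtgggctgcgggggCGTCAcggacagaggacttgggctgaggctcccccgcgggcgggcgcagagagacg
Prkaca, second start, chr8:83976633-83976932: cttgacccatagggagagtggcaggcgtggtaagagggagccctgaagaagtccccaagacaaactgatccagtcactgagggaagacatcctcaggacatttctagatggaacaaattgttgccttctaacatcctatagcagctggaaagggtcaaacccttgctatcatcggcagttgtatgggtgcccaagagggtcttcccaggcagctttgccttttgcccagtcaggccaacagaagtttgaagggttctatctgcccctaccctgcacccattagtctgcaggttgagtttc
Prkar1a, chr11:109650699-109650998: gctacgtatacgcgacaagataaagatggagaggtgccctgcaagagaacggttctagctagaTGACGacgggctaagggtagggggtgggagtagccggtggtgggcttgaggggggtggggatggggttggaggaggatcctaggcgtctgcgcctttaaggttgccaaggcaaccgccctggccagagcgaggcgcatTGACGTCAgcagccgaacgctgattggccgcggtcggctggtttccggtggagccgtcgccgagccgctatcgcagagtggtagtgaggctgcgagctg

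The CRE was searched on both strands and lay in 2 of the 22 windows, both of Prkar1a and overlapping each other, so that they hold the same site. Of all 32851 promoter windows of this length 1.79% held it. The core, which is also part of every CRE, lay in 7 of the 22 windows and in 20.8% of all windows. A pair of inverted heat shock units, GAANNTTC or TTCNNGAA, lay in 1 of the 22 windows, a window of Prkacb, and in 15.1% of all windows. None of the 22 held 3 such units in a row, GAANNTTCNNGAA or TTCNNGAANNTTC, as 0.603% of all windows did. The CpG count separates the starts of Prkaca, with 31 CpG in the first window and 2 in the second, and the Adcy10 window held 5, against a median of 7 over all windows. These matches describe letters in a window and show no binding.

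The libraries held 42479164 and 33947608 counts in the knockdown and 39331933 and 33287428 counts in WT. Levels are given as CPM, counts relative to library size after TMM scaling, and changes are log2 fold changes with a standard error (SE) from edgeR's quasi-likelihood test, whose p-values were adjusted over all 23594 tested genes and called below 0.05. Hsf5 itself had 287 and 238 CPM in knockdown libraries, against 586 and 449 CPM in WT (log2 fold change -0.98, SE 0.31, edgeR adjusted p = 0.0217), a call lost when libraries were scaled by their totals alone or when either WT library was left out (edgeR adjusted p = 0.0725 to 0.219), and below a minimum log2 fold change of 1. Markers of other cell types differed between the groups. The summed level of 8 spermatid markers was 0.402 and 0.412 CPM in knockdown libraries, where Prm2 and Smcp had no count, against 3410 and 1643 CPM in WT, and all 8 fell. The 6 markers of mid and late pachytene also all fell, with sums of 528 and 574 CPM in knockdown libraries, against 3615 and 3874 CPM in WT. Piwil1, the most abundant of them, made up nearly all of the knockdown sums and was 3.32-fold lower, while the other 5 were 20.6- to 181-fold lower, and the median log2 fold change of the 6 was -6.39. Of 6 general markers of meiotic prophase 2 rose and 4 did not pass, with sums of 2135 and 1551 CPM in knockdown libraries, against 1628 and 1474 CPM in WT. All 7 Sertoli markers rose, by 11.9- to 34.6-fold, with sums of 3423 and 4081 CPM in knockdown libraries, against 154 and 396 CPM in WT. Clu made up most of each Sertoli sum, with 2506 and 3007 CPM in knockdown libraries, against 110 and 301 CPM in WT. All 6 Leydig markers rose, with sums of 1233 and 2476 CPM in knockdown libraries, against 105 and 714 CPM in WT. Among other lists, 5 of 5 markers of preleptotene to zygotene rose, as did 6 of 9 of spermatogonia, 5 of 6 of macrophages, 3 of 4 tested of endothelial and peritubular cells and 3 of 4 of red blood cells. The part of these cells in the results that follow was not tested, and in bulk RNA fewer cells of a type and less RNA per cell cannot be told apart.

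Of the 8 genes, Adcy10 and Prkaca were lower in the knockdown, Prkacb and Prkar2b were higher, and Adcy3, Prkar1a, Prkar1b and Prkar2a did not pass the test. Over all tested genes 33.5% were called lower and 27.4% higher, and 60.9% in either direction, so neither 2 of 8 in each direction nor 4 of 8 in all stands above the background. The median log2 fold change was 0.12 over the 8 genes and -0.12 over all tested genes. The 8 values ran from -5.14 for Adcy10 to 2.43 for Prkacb.

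**Figure D1:**
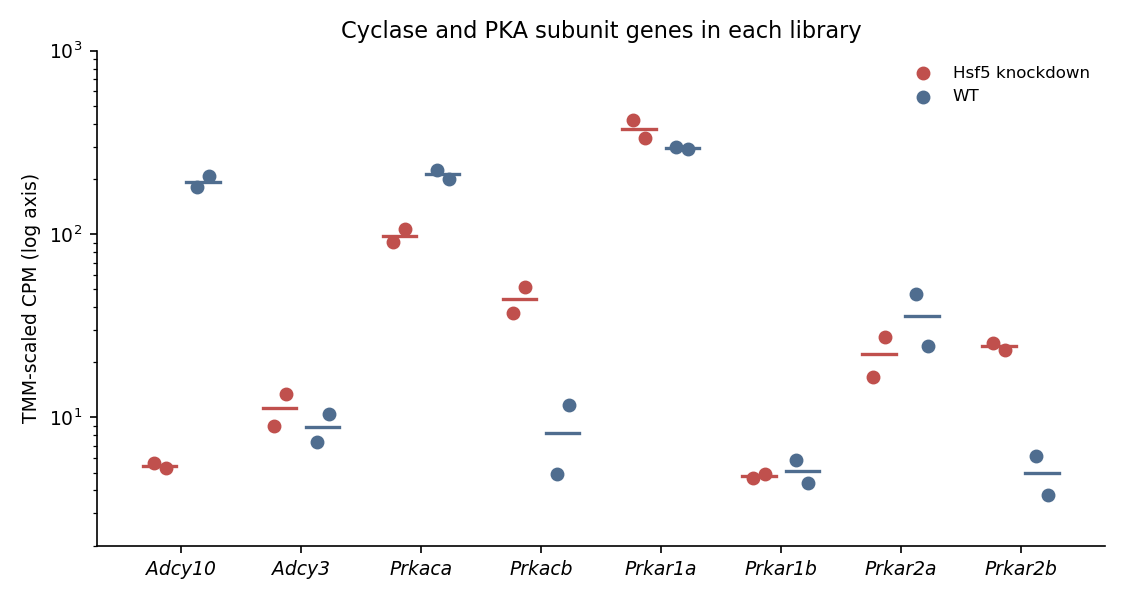
TMM-scaled CPM on a log axis for the 8 genes, with a point for each library (2 Hsf5 knockdown libraries in red at the left of each gene, 2 WT libraries in blue at the right) and a bar at each group mean. Adcy10 lies near 5 CPM in the knockdown and near 200 CPM in WT, Prkacb and Prkar2b lie higher in the knockdown, and the groups of Adcy3, Prkar1b and Prkar2a overlap.

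Soluble adenylyl cyclase showed the deepest change. Adcy10 had 5.61 and 5.33 CPM (265 and 220 counts) in the knockdown libraries, against 180 and 207 CPM (6046 and 5949 counts) in the WT libraries. Replicates lay close together and the groups were far apart, a 35.3-fold lower level (log2 fold change -5.14, SE 0.33, edgeR adjusted p = 7.62e-06, n = 2 per group). Of all tested genes 11.2% had a still lower log2 fold change, and under the 12 alternative settings the value stayed between -5.26 and -4.71 and passed each time. The spermatid and late pachytene markers given above were low in the same libraries, and their part in this fall was not tested. With at least 220 counts in each knockdown library, the remaining Adcy10 signal was far above the floor of 3 counts.

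The other cyclase of the group, Adcy3, best known from olfactory and primary cilia, had 9.04 and 13.5 CPM in knockdown libraries, against 7.39 and 10.5 CPM in WT. The groups overlapped and the change of 0.34 (SE 0.44) did not pass (edgeR adjusted p = 0.534). In the older GENCODE M21 annotation, exons of Adcy3 and of Cenpo on the opposite strand share 1380 bases, and since the strand setting of the counting is not given, reads of these genes may not be separated. Cenpo had 977 and 960 counts in the knockdown, against 2441 and 2254 counts in WT. Within a library, free of any scaling between libraries, Adcy10 had 0.621 and 0.395 counts for each Adcy3 count in the knockdown and 24.4 and 19.8 in WT. No exact permutation test of 2 against 2 libraries can give a two-sided p below 0.333, so ratios within libraries are given as values without a test.

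The catalytic subunits moved in opposite directions. Prkaca, the C alpha gene whose sperm form is required for motility in the mouse, had 90.0 and 106 CPM in knockdown libraries, against 224 and 200 CPM in WT. The groups did not overlap, and the knockdown mean was 2.16-fold lower (log2 fold change -1.11, SE 0.29, edgeR adjusted p = 0.00799). That call was lost when libraries were scaled by their totals alone (-0.67, edgeR adjusted p = 0.0589), and also when WT replicate 1 was dropped (-1.04, edgeR adjusted p = 0.0793).

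Prkacb, the C beta gene, had 37.4 and 51.6 CPM in knockdown libraries, against 4.89 and 11.6 CPM in WT. The knockdown libraries were the higher ones, and the WT libraries differed from each other by more than the knockdown libraries did on a ratio scale. The level was 5.38-fold higher (log2 fold change 2.43, SE 0.47, edgeR adjusted p = 0.00194) and the log2 fold change was 3.21 without WT replicate 2 and 1.92 without WT replicate 1, past the test in both. Sertoli and Leydig sums were higher in both knockdown libraries than in both WT libraries. So were the sums of the spermatogonia, preleptotene to zygotene, macrophage, endothelial and peritubular, and red blood cell lists. The part of these cells in the rise of Prkacb was not tested.

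Together these changes altered the make-up of the catalytic transcripts. There were 2.41 and 2.06 Prkaca counts for each Prkacb count in the knockdown and 45.7 and 17.2 in WT, a difference of -3.65 in the mean log2 ratio that was -2.95 without WT replicate 1 and -4.36 without WT replicate 2. With counts divided by the longest annotated transcript, Prkacb made up 17.8% and 20.3% of the catalytic pool in the knockdown and 1.13% and 2.96% in WT. The means were 19.1% ± 1.71 in the knockdown and 2.05% ± 1.29 in WT (SD, n = 2 each), and the groups did not overlap. Prkaca was the larger of both in every library, and the part of the Sertoli and Leydig sums in these shares was not tested.

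**Figure D2:**
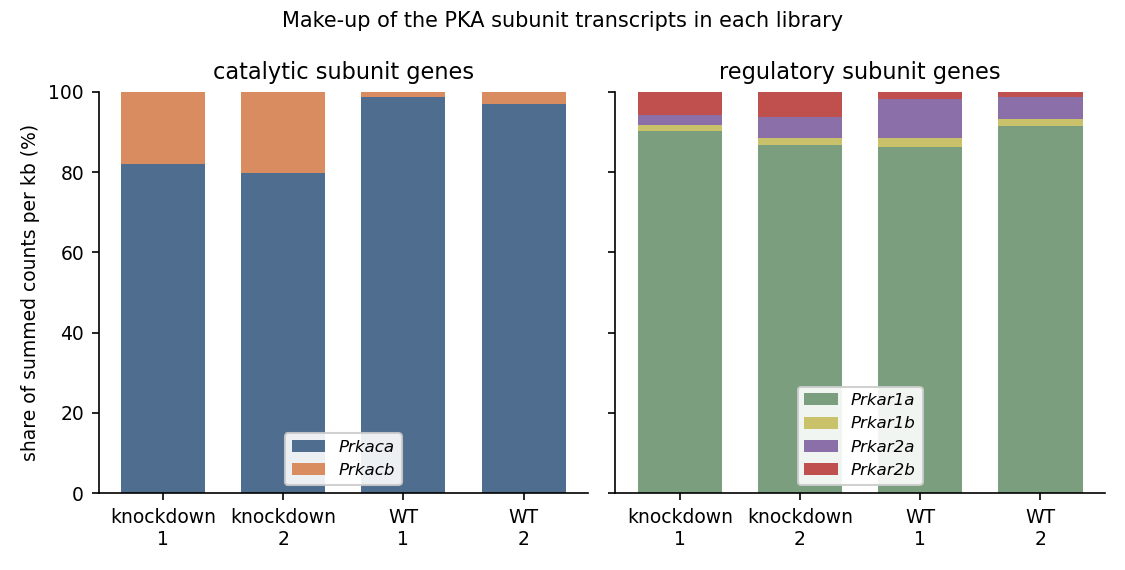
Share of each gene in the summed counts per kilobase of the catalytic (left) and regulatory (right) PKA subunit genes, as stacked bars from 0 to 100% for each of the 2 knockdown and 2 WT libraries. The Prkacb share is 17.8% and 20.3% in the knockdown and 1.13% and 2.96% in WT, whereas Prkar1a makes up 86.2% to 91.4% of the regulatory pool in all 4 libraries.

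Among the type I regulatory subunits, Prkar1a, the RI alpha gene present in most tissues, had 418 and 333 CPM in knockdown libraries, against 298 and 290 CPM in WT. Both knockdown values exceeded both WT values, but the change of 0.35 (SE 0.30) did not pass (edgeR adjusted p = 0.326). When libraries were scaled by their totals alone it passed as higher (0.78, edgeR adjusted p = 0.0295), a setting that moved the median of all tested genes to 0.31.

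Prkar1b, the RI beta gene best known from brain, was low in all libraries, at 4.68 and 4.94 CPM in knockdown libraries, against 5.84 and 4.38 CPM in WT. The groups overlapped and the change of -0.09 (SE 0.49, edgeR adjusted p = 0.888) had no stable sign, being positive under 4 of the 12 alternatives. The labels and the table do not say which annotation was used for counting, and Prkar1b shares 341 exon bases with the transcript Gm15672 in the older annotation. No gene named Gm15672 was among those counted.

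Among the type II subunits, Prkar2a, the RII alpha gene and the main type II subunit of sperm, had 16.7 and 27.5 CPM in knockdown libraries, against 47.2 and 24.5 CPM in WT. The knockdown range overlapped the WT range because WT replicate 2 lay below knockdown replicate 2, and the change of -0.70 (SE 0.43) did not pass (edgeR adjusted p = 0.18). Without WT replicate 1 the log2 fold change was -0.17 and without WT replicate 2 it was -1.07, neither past the test.

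Prkar2b, the RII beta gene, best known from brain, fat and ovarian granulosa cells, had 25.6 and 23.2 CPM in knockdown libraries, against 6.20 and 3.79 CPM in WT. The groups were well separated, with a 4.88-fold higher level in the knockdown (log2 fold change 2.29, SE 0.43, edgeR adjusted p = 0.00163), and it passed under all 12 alternatives with values from 2.0 to 2.72. Sums of Sertoli and Leydig markers were higher in the same libraries, as given above. Spermatogonia markers summed to 737 and 657 CPM in knockdown libraries, against 177 and 160 CPM in WT. Preleptotene to zygotene markers summed to 474 and 305 CPM in knockdown libraries, against 37.8 and 25.6 CPM in WT. The macrophage, endothelial and peritubular, and red blood cell sums were also higher in the knockdown. The part of all these cells in the rise of Prkar2b was not tested. For each Prkar2a count there were 1.53 and 0.844 Prkar2b counts in the knockdown and 0.131 and 0.154 in WT, a difference of 3.00 in the mean log2 ratio.

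Prkar1a made up 90.3% and 86.9% of the regulatory pool in the knockdown and 86.2% and 91.4% in WT, so its share did not separate the groups. The Prkar2b share was 5.75% and 6.30% in the knockdown and 1.87% and 1.24% in WT. That of Prkar2a was 2.55% and 5.08% in the knockdown and 9.67% and 5.48% in WT. The Prkar1b share was 1.35% and 1.72% in the knockdown and 2.25% and 1.84% in WT. Summed regulatory counts per kilobase were 2.73 and 1.86 times the catalytic ones in the knockdown and 0.989 and 0.996 times in WT. This ratio refers to transcripts and not to protein, and its level depends on the transcript lengths used. With median lengths it was 8.01 and 5.53 in the knockdown and 3.08 and 3.04 in WT, and with raw counts 3.65 and 2.46 in the knockdown and 1.56 and 1.52 in WT, so it was higher in both knockdown libraries each time while the near parity in WT holds only for the longest transcripts. Without knockdown replicate 1 the difference between the groups was 0.869 with the longest transcripts, against 1.31 with all libraries.

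**Figure D3:**
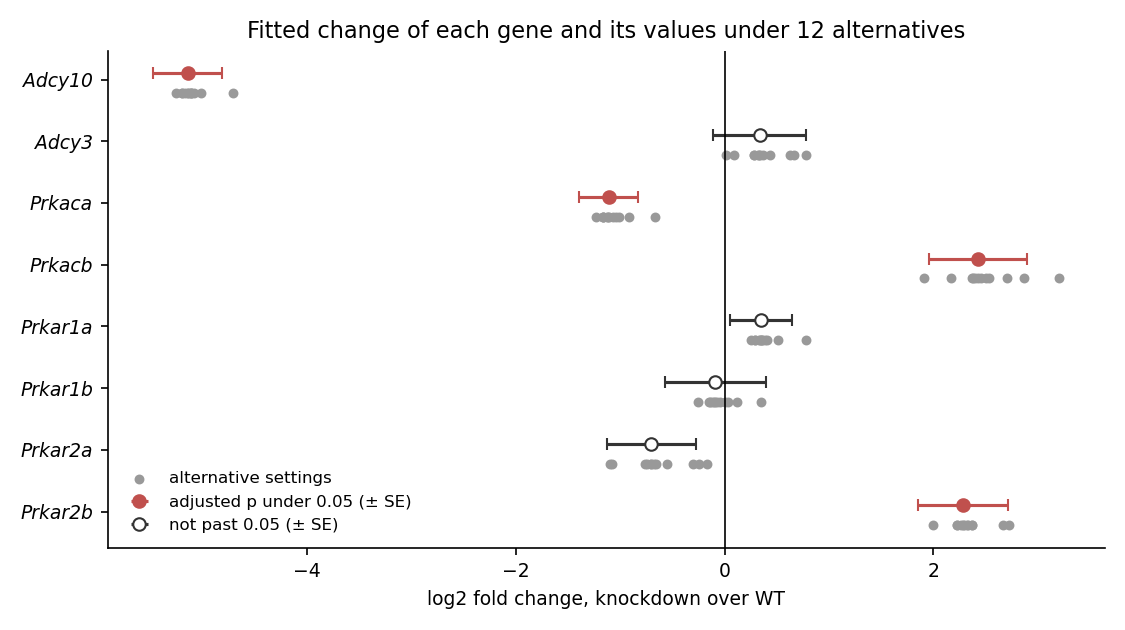
Log2 fold change of knockdown over WT for each of the 8 genes (large points with SE bars, red where the edgeR adjusted p was under 0.05 and open where it was not), with the values under 12 alternative settings as grey points beneath. The points of Adcy10, Prkaca, Prkacb and Prkar2b keep to their side of 0 and those of Prkar1b lie on both sides. The setting with a minimum log2 fold change repeats the main value of each gene.

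Ordered by level per length of the longest transcript in the knockdown, Prkar1a came first with a mean of 107 CPM per kilobase, before Prkaca (43.1), Prkacb (10.2), Prkar2b (7.22), Prkar2a (4.45), Adcy3 (2.01), Prkar1b (1.82) and Adcy10 (0.983). In WT the order began with Prkaca at 93.0 CPM per kilobase, Prkar1a at 83.6 and Adcy10 at 34.7, followed by Prkar2a at 7.23. Values of the 4 lowest genes in WT, Prkar1b (1.94), Prkacb (1.90), Adcy3 (1.59) and Prkar2b (1.48), overlapped between libraries, as did those of Adcy3 and Prkar1b in the knockdown. With median transcript lengths, an alternative chosen after the data were seen, Prkar1a came first also in WT, at 305 CPM per kilobase before Prkaca at 115, and in the knockdown Prkar2a and Prkar1b took the third and the fifth place, so the order depends on the length used. Adcy10 held the third place in WT and the last place in the knockdown with either length.

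The 5 genes nearest to Adcy10 in pattern, by Euclidean distance of mean-centred log2 values over the 4 libraries among 11650 candidates, were Grk3, Adrb1, Tcte2, Ubxn10 and Pp2d1, at distances of 0.128 to 0.2. Their log2 fold changes were -5.11 for Grk3, -6.60 for Adrb1, -5.35 for Tcte2, -5.11 for Ubxn10 and -7.01 for Pp2d1, against -5.14 for Adcy10. The 0.5 CPM added before logs shrinks differences between low levels, so genes with unlike fold changes can lie close in this distance. For Prkaca the nearest gene was Foxp1 (distance 0.0855), for Prkacb it was Ccng1 (0.073) and for Prkar2b it was Eif1ax (0.0628). The measure compares only 4 values for each gene.

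Of 72 other genes of the cAMP pathway 69 were tested, and 25 were higher, 30 were lower and 14 did not pass, that is 36.2% higher and 43.5% lower, beside 27.4% higher and 33.5% lower over all tested genes. Their median log2 fold change was -0.30, and the counts in the lists that follow are to be read against the same background. Among the alternatives that kept all libraries, the number higher ran from 22 with DESeq2 size factors to 27 with library totals only. In these settings 6169 and 8121 of all 23594 tested genes were higher. The number lower ran from 28 with library totals only to 33 with the replicate block. The spermatid, late pachytene, Sertoli and Leydig sums given above differ between the same libraries, and their part in the lists that follow was not tested.

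In the list of bicarbonate supply and sperm sodium-proton exchange 4 of 5 tested genes were lower and 1 higher, with a median of -4.20. The number lower was 3 with library totals only and after scaling to synaptonemal complex plus cohesin genes. It was also 3 without a filter on low counts and with a minimum log2 fold change of 1. Slc9c1, the sperm sodium-proton exchanger that forms a complex with soluble adenylyl cyclase in the mouse, had 3.94 and 4.34 CPM in knockdown libraries, against 295 and 235 CPM in WT (log2 fold change -6.00, SE 0.36, edgeR adjusted p = 5.83e-06). Slc26a8, an anion exchanger of the sperm annulus, had 19.4 and 20.7 CPM in knockdown libraries, against 394 and 343 CPM in WT, and Slc26a6, an anion exchanger of many epithelia, rose by 2.16 on the log2 scale. Slc26a3 and Car4 were too low to be tested.

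All 4 sperm proteins with a docking domain like that of RII fell, with a median of -4.35, which is the same with the gene without a knockdown count at its bound. Ropn1, of the fibrous sheath, was at 0 in both knockdown libraries, against 89.3 and 38.5 CPM in WT, which is at least 1940-fold lower if the knockdown pair is set at a floor of 3 counts in all and the WT counts are pooled. Without WT replicate 1 this bound is 1140-fold. Cabyr, a calcium-binding protein of the same structure, had 0.911 and 1.14 CPM in knockdown libraries, against 76.1 and 46.0 CPM in WT.

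The anchoring proteins were divided: 4 of 16 were higher and 7 lower, while 5 missed the threshold (median -0.39). The number higher was 3 with DESeq2 size factors, with the DESeq2 test, without a filter or with a minimum mean of 1 CPM. It was also 3 with a minimum log2 fold change of 1, and it was 6 with library totals only. The fibrous sheath anchors Akap4 (0.0847 and 0.0485 CPM in knockdown libraries, against 359 and 212 CPM in WT) and Akap3 (2.71 and 4.0 CPM in knockdown libraries, against 263 and 210 CPM in WT) had the smallest p-values among those that fell. Akap13 (log2 fold change 2.48, SE 0.48, and 3.17 without WT replicate 2 or 1.81 without knockdown replicate 2) and Akap9, a large anchor of the centrosome and Golgi (1.49, SE 0.36), rose. Akap14, named for its lack of knockdown counts after its values were seen, was at 0 in both knockdown libraries, against 5.93 and 2.09 CPM in WT. On the same floor it was at least 123-fold lower, a bound of 61.5-fold without WT replicate 1.

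Cyclases other than Adcy10 and Adcy3 had a median of 2.37, and of the 7 tested 4 were higher, 2 were lower and 1 missed the threshold. Adcy5 (log2 fold change 2.76, SE 0.52) and Adcy7 (2.37, SE 0.49) rose, and Adcy6 fell, with 6.99 and 6.93 CPM in knockdown libraries, against 30.7 and 23.3 CPM in WT. Adcy1 fell by 1.5 on the log2 scale (SE 0.46), a call lost with totals-only scaling, after scaling to synaptonemal complex plus cohesin genes, without knockdown replicate 1 and without WT replicate 2 (edgeR adjusted p = 0.057 to 0.106), which left 1 cyclase lower. Of the G protein alpha subunits 4 of 5 were higher and 1 was lower (median 2.46). Gnas, the stimulatory subunit that couples hormone receptors to membrane cyclases, had 599 and 513 CPM in knockdown libraries, against 35.4 and 62.3 CPM in WT, Gnai1 rose by 3.52 on the log2 scale, and Gnal, the olfactory form, fell by 4.33 on the log2 scale.

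The phosphodiesterases, which break cAMP down, had 7 of 16 lower and 5 higher, and 4 missed the threshold (median -0.46). Pde1a (2.86 and 2.52 CPM in knockdown libraries, against 66.9 and 43.1 CPM in WT) and Pde8a (76.6 and 98 CPM in knockdown libraries, against 543 and 631 CPM in WT) fell, and Pde4b and Pde4c rose by 1.86 and 3.31 on the log2 scale, the value of Pde4c being 3.90 without WT replicate 2. Without knockdown replicate 2 there were 3 higher. Among PKA inhibitors and other cAMP effectors 3 of 7 were higher and 2 lower (median -0.61). Prkx, an X-linked kinase close to the PKA catalytic subunits, had 19.2 and 29.5 CPM in knockdown libraries, against 1.49 and 2.16 CPM in WT, and the cAMP-responsive exchange factor gene Rapgef3 rose by 2.01 on the log2 scale. Pkib, a PKA inhibitor, had 0.275 and 0.097 CPM in knockdown libraries, against 25.4 and 12.7 CPM in WT, and Cnbd2, a cyclic nucleotide binding protein needed for sperm formation in the mouse, fell by 3.62 on the log2 scale. Without knockdown replicate 1 the log2 fold change of Pkib was -7.48.

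Of the 9 CREB and CREM factors and coactivators 4 were higher and 3 lower, and 2 missed the threshold (median 0.05). Crtc3 (log2 fold change 3.37, SE 0.45) and Crtc2 (1.22, SE 0.30), which are coactivators of CREB, rose, although Crtc2 lost its call once WT replicate 1 was dropped (edgeR adjusted p = 0.0539). Fhl5, the testis coactivator of CREM, had 0.0847 and 0.242 CPM in knockdown libraries, against 52.7 and 25.7 CPM in WT, and its log2 fold change ran from -8.78 without knockdown replicate 2 to -7.23 without knockdown replicate 1. Kif17, a motor protein that controls where that coactivator lies, fell by 3.99 on the log2 scale. Crem, the switch gene of haploid transcription, named after its value was seen, had 33 and 20.1 CPM in knockdown libraries, against 206 and 155 CPM in WT. The number of higher genes in this list was 2 with DESeq2 size factors, with the DESeq2 test, after scaling to synaptonemal complex plus cohesin genes, with a minimum log2 fold change of 1 or without knockdown replicate 2, and it was 1 without WT replicate 1.

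**Figure D4:**
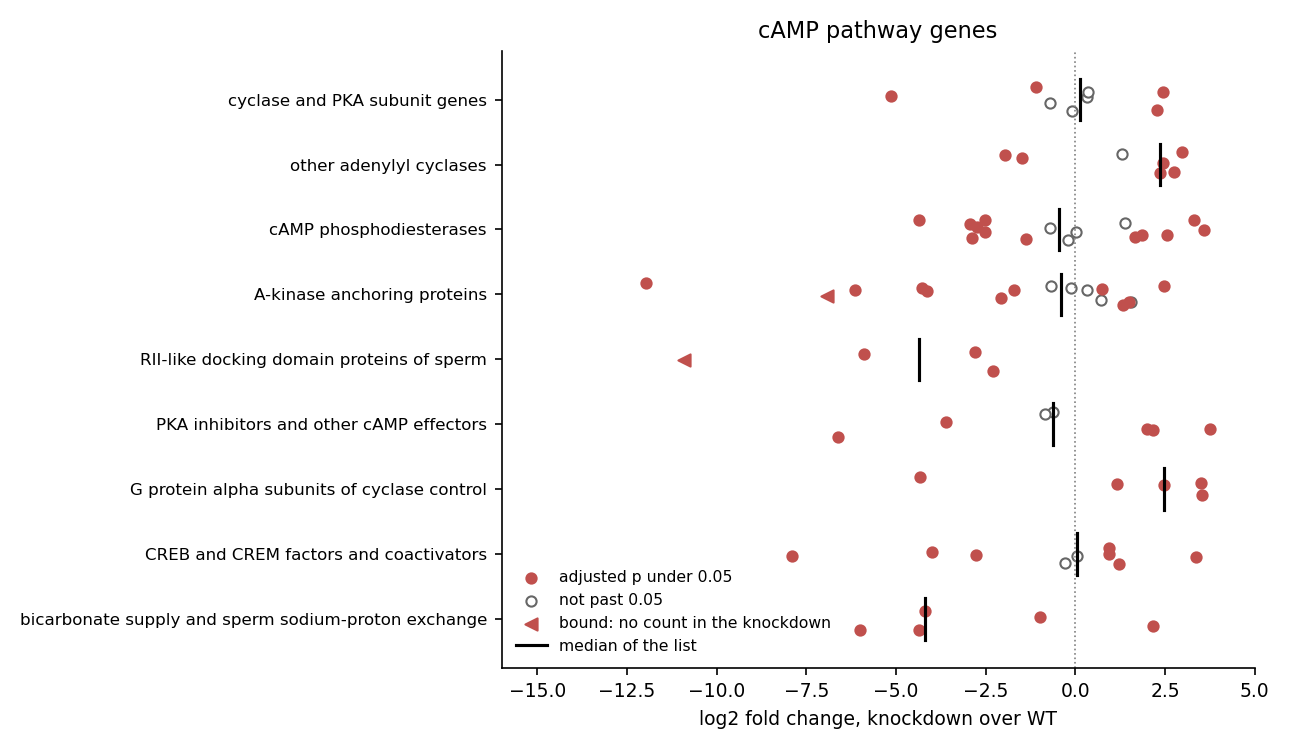
Log2 fold change of knockdown over WT for each tested gene of the 8 cyclase and PKA subunit genes (top) and of 8 lists of other cAMP pathway genes, red where the edgeR adjusted p was under 0.05, open where it was not, triangles at the bound for the genes without a knockdown count, and a black line at each median. Medians lie at -4.35 and -4.20 for the docking domain and bicarbonate lists and at 2.37 and 2.46 for the other cyclases and the G protein subunits.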

How the data were processed

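Gene expression was measured by RNA-seq of polyadenylated RNA in 4 libraries. The authors deposited a single table of unnormalized gene counts whose columns were matched to the samples by name. The submitters' processing notes name the build mm39 and the tools DESeq2 1.46.0, HISAT2 2.2.1, Trim Galore 0.6.10 and featureCounts 1.5.3. Neither the annotation nor the handling of strand and of multi-mapped reads is stated in these sources, which makes counts of overlapping genes and close paralogs less certain.

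In R 4.3.3, edgeR 4.0.16 compared knockdown with WT by the quasi-likelihood F test (filterByExpr by group, TMM, Benjamini-Hochberg adjustment over 23594 genes, threshold 0.05, biological coefficient of variation 0.356). Each SE is an approximation, taken as the size of the log2 fold change over the root of its F statistic. DESeq2 1.42.0 was an alternative, as were other scalings, filters, the replicate number as a block and leaving out each library. Lengths are the longest GENCODE M21 (GRCm38) transcripts. Bounds cover counting error only.

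The members, the lists and the alternatives were chosen with earlier results of these data known. Named genes are the 8 genes and Hsf5, per list up to 2 called genes in each direction with the smallest p, and for each called gene its nearest in pattern (5 for Adcy10) with a mean of at least 5 CPM and 0.5 CPM added before logs. Replicates of a group differed by more than sampling noise (their chi-square was 123 times its degrees of freedom for the knockdown pair and 57 times for the WT pair), and each library was counted as 1 replicate.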

Additional observations from a re-analysis of the deposited data

How the results depend on the processing

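The calls of Adcy10, Prkacb and Prkar2b held under all 12 alternatives. Among these, the minimum log2 fold change of 1 reuses the main fit and could not change these calls. With library totals only, Prkaca (log2 fold change -0.67, adjusted p = 0.0589) no longer passed, Prkar1a passed as higher (0.78) and 1 of the 8 genes was lower. Without WT replicate 1 Prkaca was at -1.04 (adjusted p = 0.0793), its range without 1 library being -1.23 to -0.92 (edgeR adjusted p = 0.0055 to 0.0793), and the number of genes lower was 1 to 2 over these fits. Prkar1b, never past the test, changed sign with library totals only (0.35) and after scaling to synaptonemal complex plus cohesin genes (0.0045), and ranged from -0.26 to 0.12 without 1 library. With median transcript lengths the difference, knockdown minus WT, was 4.59 percentage points for the Prkar1a share (-0.19 with the longest), 1.36 for the Prkar2b share (4.47) and 3.71 for the regulatory over catalytic ratio (1.31). With raw counts the Prkaca share differed by -27.2 points (-17.0 per length). The shares and the ratio rest on the same counts in each of these settings, and only the division by length differs. Scaling by library totals leaves out the TMM factors, which were 1.11 and 1.22 in knockdown libraries, against 0.854 and 0.865 in WT. The bounds of Ropn1 and Akap14 without each WT library were added after the data were seen. At this depth the 8 genes had at least 109 counts in each library, and precision is limited by the 2 libraries per group.

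The labels number the replicates but do not say whether those of the same number belong together. With the replicate block 7016 genes were higher and 8351 lower, against 6467 and 7902 without it. The block changed no call among the 8 genes (Prkaca -1.11, edgeR adjusted p = 0.000487, against 0.00799 without it). The differences between replicates 1 and 2 correlated across genes with r = 0.32 between the groups. Whether this reflects a pairing was not tested.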
